A study of Mus musculus with 101 samples.

Results

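The cells described here are XX primordial germ cells (PGCs) of 10 F3 mouse embryos, 4 from the lineage of dams given 0.033 mg/kg-day benzo[a]pyrene (BaP) and 6 from the lineage of vehicle-treated dams. They were chosen by generation, dose and sex as their sample names state them, and by no measured value, and they are 10 of the 101 embryos of the study and 10 of its 16 F3 females. The study asked whether BaP given to a pregnant F0 dam alters the transcriptome of embryonic germ cells over the F1, F2 and F3 generations, the last of which had no direct contact with the compound. BaP is a polycyclic aromatic hydrocarbon of smoke and soot. Germ cells were collected at E13.5 and each library came from 1 embryo, with no pooling. All the mice were of the OG2 strain, in which a Pou5f1-EGFP transgene, driven by the germ-line part of the Pou5f1 promoter, makes green fluorescence in germ cells. EGFP-positive cells were sorted by flow cytometry from dissociated gonads, so any other cell that enters the sort adds its RNA to the library. Libraries were made with a SMARTer Ultra Low Input kit from oligo-dT-primed cDNA. F0 dams of both groups ate sesame oil, which for the vehicle group carried no BaP, and BaP doses of 0.033, 0.2 and 2 mg/kg-day were used in the study. Dosing ended earlier in gestation for the F1 embryos than for the lineages of F2 and F3. The group of 0.033 mg/kg-day held embryos D2374.5, D2549.1, D3501.3 and D3744.1, and the vehicle group held D1344.3, D1388.3, D3402.1, D3526.1, D3612.1 and D3651.2, in each case the dam followed by the embryo. The 10 embryos came from 10 dams of F2, and the labels do not name the F0 dam behind each, so that embryos of different dams may share a treated or vehicle F0 dam.

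In the fetal ovary, XX germ cells leave mitosis and begin meiosis, a step driven by Stra8, whereas XY germ cells arrest in mitosis and for a short time switch on Nodal signalling, with its co-receptor Cripto (Tdgf1) and its inhibitors Lefty1 and Lefty2. Ccl3 and Ccl12 encode secreted CC chemokines, which draw monocytes and other leukocytes through G protein-coupled receptors and are themselves made mainly by macrophages. The fetal gonad also holds yolk-sac-derived and liver-derived macrophages, supporting cells, steroidogenic cells, endothelium and mesenchyme beside its germ cells.

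The deposited values are TMM-normalized read counts (CPM), and each embryo's whole reads can be recovered from them. Over the 15423 genes of the table, between 7149234 and 8710232 reads were recovered for each of the 10 libraries, with a median of 7832400. Germ cell identity was plain in all 10: Dppa3, a gene of early germ cells, lay between 1257 and 2003 normalized counts in the 4 exposed embryos and between 960 and 1716 in the vehicle embryos. Ddx4, the germ cell RNA helicase, lay between 346 and 563 in the exposed group and between 320 and 715 in the vehicle group. Sycp3, of the synaptonemal complex of meiotic chromosomes, lay between 198 and 1650 and between 173 and 974. Nanos2, which fixes the male fate of germ cells, was at 0 in all 4 exposed embryos and at most 0.200 in the vehicle group, and the 7 Y-linked genes of the table were at 0 in all 10 libraries. The female label and the germ cell label were thus borne out in each library. Of 33 germ cell identity genes, all of which passed the filter described next, 0 were called in either direction by limma, edgeR or DESeq2, 0 of them also at an unadjusted p under 0.05 in limma, and the median log2 fold change was 0.04, with Dppa5a the most abundant.

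The comparison of 0.033 mg/kg-day with vehicle asks which transcripts differ in XX germ cells 3 generations after a low dose. No gene passed the limma test after adjustment, but by the looser rule given below 16 of the 17 macrophage markers tested were higher in the exposed group, and so were the chemokine genes Ccl3 and Ccl12. A second set of genes, among them markers of gonadal somatic cells, was high above all in embryo D3744.1, and Tdgf1 was high in D3744.1 and D3501.3 alone among the 10. Genes with a mean of at least 0.5 normalized counts over the F3 embryos were tested, 13139 of 15423. At an adjusted p under 0.05, limma called 0 of them (0%), with 527 at an unadjusted p under 0.05, and the smallest adjusted p was 0.168. The study also used a looser rule, by which a gene is called here: a difference of 1.5-fold or more and an unadjusted p below 0.05. By it 234 genes (1.78%) were higher and 158 (1.20%) lower in the exposed group, and the median log2 fold change over all genes tested was 0.00012. The quasi-likelihood test of edgeR called 0 genes after adjustment, with 613 at an unadjusted p under 0.05. The likelihood ratio test of edgeR called 20 and DESeq2 called 10, all of them higher in the exposed group.

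Embryo D3744.1 was the highest of the 10 in 142 of the 234 genes called higher (60.7%), against 23.7% of the 7019 tested genes whose highest embryo was an exposed one. D3501.3 was the highest in 47, D2374.5 in 26 and D2549.1 in 19 of the 234. Of the 20 genes called by the likelihood ratio test, 16 were highest in D3744.1, as were 8 of the 10 of DESeq2, and with that embryo left out limma, both edgeR tests and DESeq2 each called 0 genes after adjustment. Leaving D3744.1 out brought the genes called higher by the looser rule from 234 to 114, and leaving D2549.1 out brought them to 470. The genes called lower went from 158 to 390 without D2549.1, to 260 without D3526.1 and to 97 without D1344.3. Between the groups with no overlap at all lay 67 genes higher (0.510% of those tested) and 56 lower (0.426%).

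Ccl3, a macrophage inflammatory protein, lies at chr11:83647843-83649378 (GRCm38). Its level was 4.50 normalized counts in D2374.5, 2.10 in D2549.1, 3.25 in D3501.3 and 4.14 in D3744.1, and in the vehicle group the lowest value was 0, the median 0 and the highest 2.48. Behind these stood 34, 17, 26 and 39 reads in the exposed embryos. All 4 exposed embryos had the transcript, and 4 of the 6 vehicle embryos had no read of it, but D3402.1 of the vehicle group lay above D2549.1, so that the groups overlapped. The mean was 3.49 ± 1.07 (SD, n = 4) against 0.728 ± 1.14 (n = 6), and the log2 fold change was 2.15 (limma unadjusted p = 0.00102, adjusted p = 0.534; exact permutation p = 0.0143). Of the alternatives that could test it, only DESeq2 ended the call of Ccl3, with an unadjusted p of 0.0808.

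Ccl12, a monocyte chemoattractant that acts through Ccr2, lies elsewhere on chromosome 11 at chr11:82101845-82103399. Its level was 6.74 in D2374.5, 2.84 in D2549.1, 0.625 in D3501.3 and 0.318 in D3744.1, and the vehicle group had a lowest value of 0, a median of 0 and a highest of 0.653. Ccl12 was high in D2374.5 and D2549.1, whereas D3501.3 and D3744.1 lay within the vehicle range on 5 and 3 reads. The mean was 2.63 ± 2.96 (n = 4) against 0.164 ± 0.274 (n = 6), with a log2 fold change of 1.80 (limma unadjusted p = 0.000214, adjusted p = 0.315; exact permutation p = 0.0238). Without D2374.5 the gene fell under the filter and was not tested. Both chemokine genes were highest in D2374.5, and Ccl3 was the more even of them.

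Among the CC and CXC chemokines listed, 19 of 34 were in the table and 11 passed the filter. Of these 3 were called higher (Ccl12, Pf4 and Ccl3) and 0 lower, where 1.78% of all genes were called higher. Ccl12 and Pf4 passed the filter only with the exposed embryo D2374.5 in, so the count cannot be weighed against that share. Without D2374.5 1 of 9 was called higher. The median log2 fold change was 0.37 against 0.00012 over all genes. It was 1.28 to 1.38 with edgeR and DESeq2 (0.019 to 0.040 over all genes) and 0.72 in the fit of F3 females alone. Without the filter the median over the 19 was 0.56 against 0.0063 over all genes. Pf4, platelet factor 4, which fetal macrophages also make, was at 2.64, 1.11, 3.75 and 0.530 in the exposed embryos against a vehicle median of 0.0513 and a highest of 0.653, a log2 fold change of 1.69; without D2374.5 or without D3501.3 it fell under the filter and was not tested. Ccl4, the neighbour of Ccl3 on chromosome 11 and its close relative, was at 2.91, 0, 2.87 and 4.98 against a vehicle median of 0.426 and a highest of 2.77, and was not called (log2 fold change 1.08), though it was called without D2549.1 (1.83), D1344.3 (1.39) or D3402.1 (1.35); without D3744.1 it was at 0.68. The most abundant member, Ccl27a, lay between 46.1 and 48.0 in the exposed embryos and between 26.7 and 56.4 in the vehicle group and was not called. The summed level of the list was 89.0, 78.9, 75.3 and 75.8 in the exposed embryos and had a vehicle median of 56.3 with a highest of 81.7. Of the chemokine receptors, 9 of 19 were in the table, 4 were tested and 0 were called by limma, 0 of them also at an unadjusted p under 0.05, and 0 by edgeR and DESeq2; their median log2 fold change was -0.12 and the most abundant was Cxcr4. That direction did not hold throughout. Without the filter the median over the 9 receptors was 0.32, against 0.0063 over all genes, and the fit of F3 females alone gave a median of 0.24. Calls of receptors went both ways. Limma called 2 of 9 higher without the filter, 1 of 4 lower with a pseudocount of 0.1 and 1 of 4 lower without D3744.1.

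Macrophage genes as a group were higher. Of 34 macrophage markers 28 were in the table, 17 passed the filter, and 16 of these were called higher and 0 lower, where 1.78% of all genes were called higher. The exception was Coro1a, the leukocyte coronin, and the median log2 fold change of the 17 was 1.69 against 0.00012 over all genes tested. Some members, Pf4 among them, passed the filter only with an exposed embryo in, so the count of 16 cannot be weighed against the 1.78%. Without D2374.5 12 of 15 were called higher, and without D3501.3 14 of 16. Without the filter the median over the 28 was 1.26 against 0.0063 over all 15423 genes. The groups did not overlap in 5 of the 17 tested, all higher, where 0.510% of all genes tested were higher with no overlap, and in 8 of the 28 in the table. Fewer cells of a type and less RNA per cell cannot be told apart in such libraries, and neither can more of either.

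The summed level of the macrophage list was 137 normalized counts in D2374.5, 56.0 in D2549.1, 105 in D3501.3 and 107 in D3744.1. Across the vehicle embryos the lowest sum was 4.71, the median 23.1 and the highest 54.5. All 4 exposed embryos lay above all 6 vehicle embryos, D2549.1 by a narrow margin. Ccl3 was at 0 in the 4 vehicle embryos with the lowest sums, D1388.3, D3526.1, D3651.2 and D3612.1, and was present in D1344.3 and D3402.1, whose sums were 54.5 and 50.3. The part of macrophage RNA in the levels of Ccl3 and Ccl12 was not tested.

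C1qb, a chain of complement C1q and the most abundant of the list, was at 15.1, 6.04, 16.5 and 14.7 in the exposed embryos, and the vehicle group had a lowest value of 0, a median of 2.04 and a highest of 8.43. D2549.1 lay inside the vehicle range and the other 3 above it, and the log2 fold change was 2.55 (limma unadjusted p = 0.00125, adjusted p = 0.567; exact permutation p = 0.0429). C1qc, another chain, was at 8.46, 5.18, 7.74 and 11.2 against a vehicle median of 1.46 and a highest of 6.21, a log2 fold change of 2.26. C1qa, the remaining chain, was at 1.45, 0.863, 2.00 and 3.82 against a vehicle median of 0.159 and a highest of 3.11, and its call was lost with either edgeR test, with DESeq2 and without D3744.1, where its log2 fold change went from 1.35 to 1.05.

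C3ar1, the receptor for complement C3a, had the smallest p of all genes tested. Its level was 5.42 in D2374.5, 3.70 in D2549.1, 3.5 in D3501.3 and 4.24 in D3744.1, and the vehicle group had a lowest value of 0, a median of 0.482 and a highest of 1.22. Every exposed embryo lay well above every vehicle embryo, which the choice of the gene by its p in this same comparison partly set. The mean was 4.21 ± 0.864 (n = 4) against 0.451 ± 0.449 (n = 6), and the log2 fold change was 2.43 (limma unadjusted p = 1.5e-05, adjusted p = 0.168; exact permutation p = 0.00476, the smallest that 4 against 6 embryos can give). Cd68, the lysosomal glycoprotein of macrophages, was at 8.73, 3.58, 6.0 and 6.57, and the vehicle group had a lowest value of 1.5, a median of 2.33 and a highest of 2.98. The groups again did not overlap, and the log2 fold change was 1.22 (limma adjusted p = 0.315).

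Fcer1g and Tyrobp encode adaptors that signal for activating receptors of myeloid cells. Fcer1g was at 17.3, 6.53, 9.37 and 8.69 against a vehicle median of 1.97 and a highest of 4.05, and its groups did not overlap (log2 fold change 2.53). Tyrobp was at 11.1, 4.93, 9.74 and 9.86 against a vehicle median of 2.65 and a highest of 5.66, so that D2549.1 lay within the vehicle range (log2 fold change 1.68). Aif1, the calcium-binding protein Iba1 of macrophages, was at 3.31, 2.34, 5.25 and 6.15 against a vehicle median of 0.688 and a highest of 1.66, with no overlap (log2 fold change 2.07).

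Several markers of the lineage were at low levels. Emr1, the F4/80 antigen of mature macrophages, was at 2.78, 0.616, 0.625 and 1.27 in the exposed embryos and at most 0.444 in the vehicle group, and did not pass the filter. Csf1r, the receptor on which macrophages depend, was at 2.38, 0, 1.25 and 1.59 against at most 1.11, with a log2 fold change of 1.15 that lost its call without D3744.1, at 0.99. Ptprc, the pan-leukocyte CD45, was at 0 in D2374.5, between 0.212 and 0.370 in the other exposed embryos and at most 0.111 in the vehicle group, so that it was nearly absent from every library. Of 18 other leukocyte markers 7 were in the table, 4 were tested and 0 were called by limma, 0 of them also at an unadjusted p under 0.05, and 0 by edgeR and DESeq2, with a median log2 fold change of -0.02. The most abundant of those was Cd79a, and their sum lay between 1.72 and 4.19 in the exposed group and between 1.95 and 4.85 in the vehicle group.

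**Figure D1:**
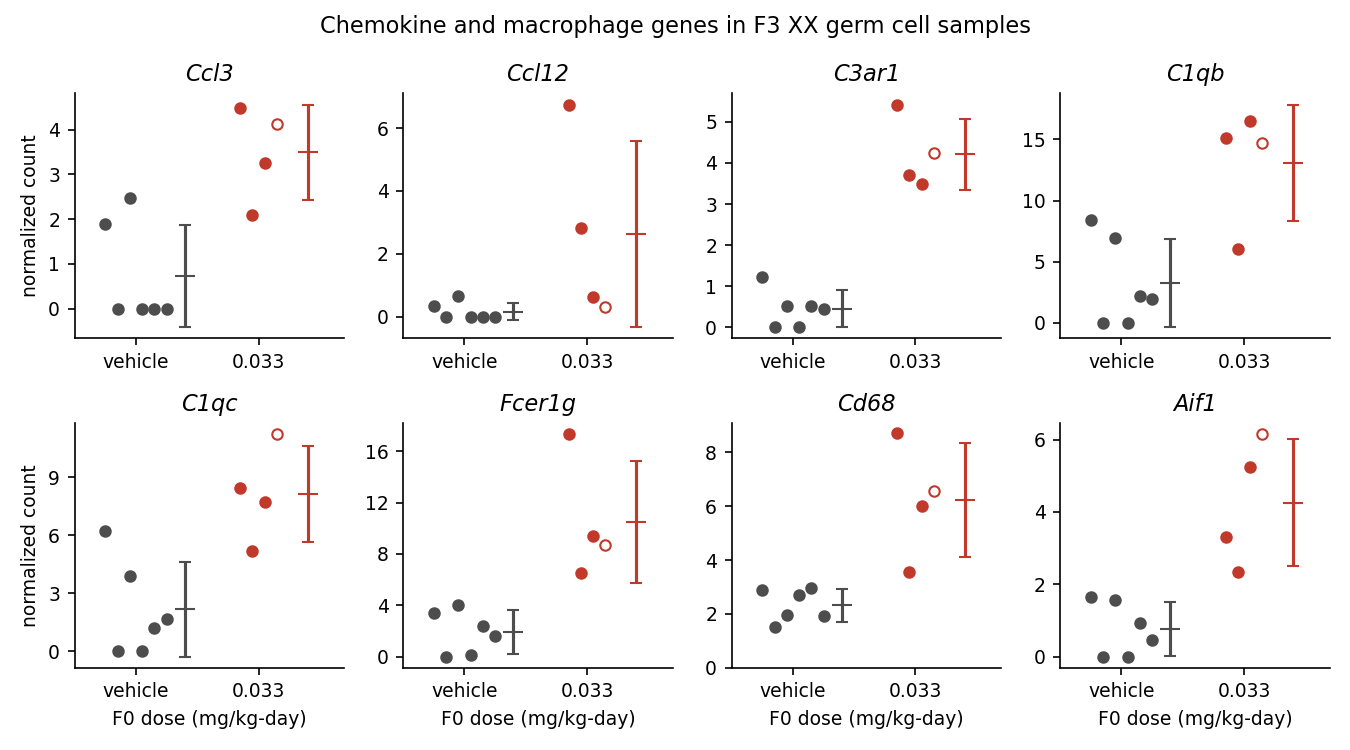
Normalized counts (y axes) of 2 chemokine genes and 6 macrophage genes in the 6 vehicle (grey) and 4 exposed (red) F3 female embryos, by F0 dose (x axes); each circle is an embryo, the open circle is D3744.1, and the bars are the mean ± SD, which for values near 0 can reach below 0. C3ar1 lies between 3.5 and 5.42 in the exposed group and between 0 and 1.22 in the vehicle group, while Ccl12 is high only in 2 exposed embryos.

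Macrophage genes are known to carry in their promoters the purine-rich box bound by PU.1, the product of Spi1 and a master factor of the myeloid lineage, whose own transcript is not in the table. The letters GAGGAA were searched on both strands (TTCCTC on the other) in the RefSeq promoters of GRCm38.p6, from 250 bases before to 50 after the start. They were in 9289 of 32851 promoters (28.3%), and in 16 of the 25 promoters (64%) found for 21 of the macrophage markers in the table. The promoters of Ccl3 and Ccl12 are shown because both genes were called higher, as most of that list were, with the box in capitals. Each holds it on a different strand, in the reverse orientation at chr11:83649329-83649628 (minus strand) for Ccl3 and in the forward orientation at chr11:82101595-82101894 (plus strand) for Ccl12. A match describes the letters and says nothing of binding.
Ccl3: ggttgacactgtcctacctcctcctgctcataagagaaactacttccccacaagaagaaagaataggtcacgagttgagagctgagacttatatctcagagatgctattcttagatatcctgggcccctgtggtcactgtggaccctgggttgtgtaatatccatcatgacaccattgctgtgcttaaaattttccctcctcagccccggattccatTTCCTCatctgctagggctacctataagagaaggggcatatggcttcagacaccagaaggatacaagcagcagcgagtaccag
Ccl12: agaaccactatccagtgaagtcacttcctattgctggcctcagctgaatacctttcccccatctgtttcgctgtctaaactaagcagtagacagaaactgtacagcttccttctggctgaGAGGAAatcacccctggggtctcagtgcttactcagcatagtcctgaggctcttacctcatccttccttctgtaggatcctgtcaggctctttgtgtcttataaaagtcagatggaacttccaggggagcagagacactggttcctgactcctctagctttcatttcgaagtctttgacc

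The F3 males, 4 exposed and 6 vehicle, give the same contrast in other embryos; all but the vehicle male D3523.1 have a sister among the 10 females. They enter the female comparison only through the shared estimate of spread and the filter. In these males 5 of the 17 macrophage markers were called higher and 0 lower, with a median log2 fold change of 0.67, where 110 of all genes (0.837%) were called higher and 140 (1.07%) lower. Their summed macrophage level was 77.0 in D2374.1, 20.1 in D2549.3, 57.3 in D3501.1 and 59.1 in D3744.4, against a lowest of 3.93, a median of 27.9 and a highest of 64.6 in the vehicle males. The exposed males overlapped the vehicle males, and the litter with the lowest sum among the exposed females, D2549, also had the lowest among the exposed males. In the vehicle litters the sister of dam D1388 had 4.71 and the brother 6.22, those of D1344 had 54.5 and 64.6, and those of D3612 had 27.2 and 45.2. In all 4 exposed litters the sister lay above the brother, and in 4 of the 5 vehicle litters with both sexes the sister lay below.

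Limma called 0 genes in the males after adjustment, with 402 at an unadjusted p under 0.05, and both edgeR tests and DESeq2 called 0. The difference between the sexes in the response was 0.81 as a median log2 over the macrophage list and passed the looser rule in 3 of its 17 members, where over all genes 122 (0.929%) passed it with a higher and 72 (0.548%) with a lower response in females. Of the 11 chemokines tested, 1 was called higher in males with a median log2 fold change of 0.38, and the median difference between the sexes was -0.04, with 3 passing the looser rule as higher in females. For Ccl3 the response differed between females and males by 1.73 on the log2 scale (limma unadjusted p = 0.0482) and for Ccl12 by 1.75 (unadjusted p = 0.00725). For C3ar1 it differed by 1.67 (unadjusted p = 0.0186). With dam as a random block, which takes account of littermates, the unadjusted p was 0.0269, 0.00258 and 0.00585 for these 3 genes, and 3 of the 17 macrophage markers again passed the looser rule, where 208 of all genes (1.58%) passed it as higher and 127 (0.967%) as lower. None of these genes passed after adjustment, where limma called 0 genes without the block (202 at an unadjusted p under 0.05) and 0 with it (358), and both edgeR tests and DESeq2 also called 0, so that a difference between the sexes was not shown.

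**Figure D2:**
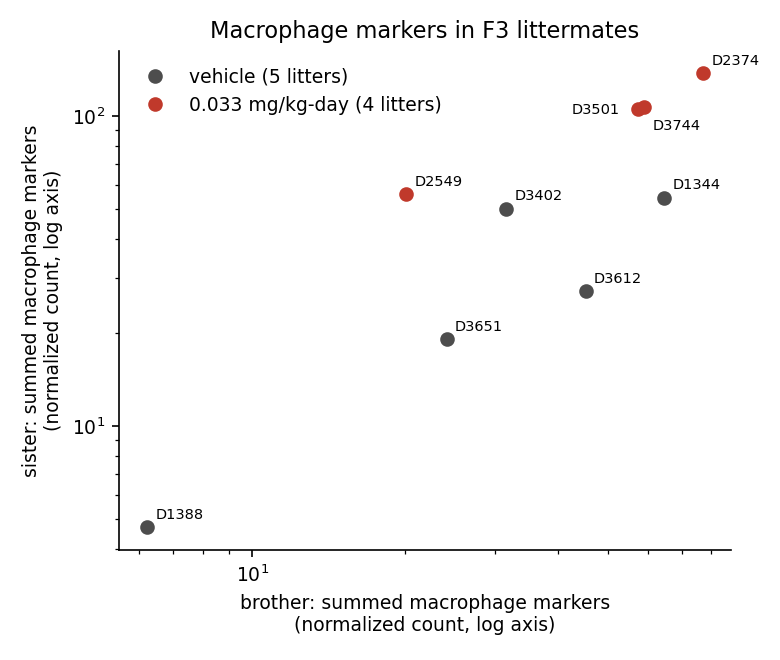
Summed macrophage markers in the sister (y axis) and brother (x axis) of each F3 litter, in normalized counts on log axes, for 5 vehicle litters (grey) and 4 litters of 0.033 mg/kg-day (red), 1 embryo of each sex per litter. Exposed sisters lie between 56.0 and 137 and vehicle sisters between 4.71 and 54.5, while the brothers of both groups overlap.

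In females of earlier generations the same F0 dose gave no call of a macrophage marker, and a difference between generations was not tested. Males of those generations were not compared gene by gene; their macrophage sums were 35.6 and 160 in the 2 exposed F1 males against 11.4 to 48.7 in 5 vehicle males, and 5.88 to 34.0 in 3 exposed F2 males against 14.6 to 77.4 in 6. The F0 dams of the F1 embryos were dosed for a shorter part of gestation, so that F1 differs from F2 and F3 in the dosing as well. In F2 females 94 genes (0.718%) were called higher and 177 (1.35%) lower, with 0 after adjustment by limma and 444 at an unadjusted p under 0.05. None of the 16 macrophage markers tested there was called, and their median log2 fold change was -0.23. The sum was 46.2, 59.8 and 18.2 in the 3 exposed F2 females and between 27.7 and 71.7 in the 6 vehicle females. In F1 females, of which 2 were exposed, 9 genes (0.0660%) were called higher and 14 (0.103%) lower, with 0 after adjustment by limma and 25 at an unadjusted p under 0.05. Of 18 macrophage markers tested in F1 0 were called, with a median log2 fold change of 0.32, and the sum was 31.0 and 69.3 against 16.4 to 74.4 in the 5 vehicle females. The F3 vehicle females had a lower median sum than those of earlier generations, 23.1 against 51.8 in F2 and 44.9 in F1. The exposed F3 females, with sums of 56.0 to 137, reached above the highest vehicle female of F1 or F2 in 3 of 4 cases.

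Higher doses can be set beside 0.033 mg/kg-day only with the reservation that all F3 comparisons with vehicle share the same 6 vehicle embryos. At 2 mg/kg-day, with 4 females, 402 genes (3.06%) were called higher and 752 (5.72%) lower, and 1 of 17 macrophage markers was higher, with a median log2 fold change of 0.56. At 0.2 mg/kg-day, with 2 females, 746 genes (5.68%) were called higher and 750 (5.71%) lower, and 0 of 17 macrophage markers were called, with a median of 0.05. The macrophage sum lay between 18.1 and 60.6 at 2 mg/kg-day and was 28.5 and 18.1 at 0.2 mg/kg-day, so that the 0.033 mg/kg-day group had the highest median of the 4 F3 female groups, though D2549.1 lay within the range of 2 mg/kg-day. Compared directly, 7 of 17 macrophage markers were higher at 0.033 than at 2 mg/kg-day and 11 of 17 were higher than at 0.2 mg/kg-day. Over all genes 195 (1.48%) were higher and 47 (0.358%) lower at 0.033 than at 2 mg/kg-day, and 855 (6.51%) were higher and 795 (6.05%) lower than at 0.2 mg/kg-day. Limma called 0 genes after adjustment in each of these comparisons, with 2018 at an unadjusted p under 0.05 at 2 mg/kg-day and 1677 at 0.2 mg/kg-day against vehicle, and 287 and 1856 in the direct ones. Ccl3 had a log2 fold change of 1.79 at 2 mg/kg-day and 0.18 at 0.2 mg/kg-day, and Ccl12 had 1.32 and 0.44. Of the 11 chemokines tested, 3 were higher and 0 lower at 2 mg/kg-day with a median of 0.39, near the 0.37 at 0.033 mg/kg-day, and 0 were higher and 1 lower at 0.2 mg/kg-day with a median of 0.14.

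Tdgf1 encodes Cripto, the co-receptor through which Nodal signals, and is a mark of fetal male germ cells: in the vehicle embryos of F1 and F2 its mean was 0.324 in females and 19.0 in males, a log2 difference of 4.65. It lies at chr9:110939608-110946158 and has pseudogenes elsewhere in the genome, whose reads can be hard to assign. Among the F3 females its level was 0.132 in D2374.5, 0 in D2549.1, 3.0 in D3501.3 and 4.98 in D3744.1, and the vehicle group had a lowest value of 0, a median of 0.233 and a highest of 0.368. Behind these stood 1, 0, 24 and 47 reads in the exposed embryos and at most 3 in a vehicle embryo. Tdgf1 was high in D3501.3 and D3744.1, while D2374.5 and D2549.1 lay within the vehicle range. The brothers of those embryos had 12.8 (D2374.1), 15.9 (D2549.3), 22.2 (D3501.1) and 31.7 (D3744.4), so that the high females stayed below every exposed male.

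With 0.5 added to each value, which matters at such low counts, the log2 fold change of Tdgf1 was 1.21 (SE 0.526; limma unadjusted p = 0.0279, adjusted p = 0.990; exact permutation p = 0.138). The call was lost without D3744.1 (0.61), without D3501.3 (0.83), without D1388.3 (1.12) and without D3651.2 (1.12), and it was lost when the fit held F3 females alone or the 10 embryos alone. The likelihood ratio test of edgeR gave an adjusted p of 0.0252 and a log2 fold change of 3.31 with all 10 embryos.

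Of 25 genes of the Nodal pathway 23 were in the table, 22 were tested, and 2 were called higher (Tdgf1 and Fst) and 0 lower, where 1.78% of all genes were called higher, with a median log2 fold change of -0.04 against 0.00012 over all genes. With edgeR and DESeq2 that median was positive (0.08 to 0.10), and 6, 6 and 5 genes were called higher by the quasi-likelihood test, the likelihood ratio test and DESeq2, which called 364, 408 and 393 of all genes higher; the likelihood ratio test also called 1 lower. The most abundant was Smad2, a transducer. Nodal itself, the ligand, was at 0.264, 0.247, 1.62 and 3.5 in the exposed embryos, against a vehicle median of 0.913 and a highest of 2.33, and the groups overlapped. Lefty2, an inhibitor and target of Nodal, was at 0, 0, 2.12 and 1.48 against at most 0.308, high in the same 2 embryos as Tdgf1. It was not called by limma (log2 fold change 0.69), but both edgeR tests and DESeq2 placed it past the looser rule, the likelihood ratio test with an adjusted p of 0.0418, and limma called it without D2374.5 or without D2549.1, at 1.05 each, whereas without D3501.3 it was at 0.25 and without D3744.1 at 0.39. Lefty1, its close relative and neighbour on chromosome 1, was at 0.661, 0, 3.37 and 2.33 against at most 1.18, so that in all 3 target genes D3501.3 and D3744.1 stood above the vehicle embryos. Fst, follistatin, which binds activin and is made by supporting cells of the ovary, was at 1.45, 0.616, 2.87 and 6.47 against a vehicle median of 0.408 and a highest of 0.776 (log2 fold change 1.62, limma adjusted p = 0.315). The Nodal count was 1 without D3501.3, D3744.1, D1388.3 or D3651.2 and 5 without D2549.1.

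Stra8, the retinoic acid-induced gatekeeper of meiosis, was at 456 in D2374.5, 882 in D2549.1, 9.12 in D3501.3 and 29.2 in D3744.1, and the vehicle group had a lowest value of 62.9, a median of 459 and a highest of 620. The 2 embryos with high Tdgf1 were those below every vehicle embryo in Stra8, and the other 2 lay within or above the vehicle range. The log2 fold change of the group was -1.69 and was not called (limma unadjusted p = 0.0922); it was called without D2374.5 (-2.40), without D2549.1 (-2.72) and without D3526.1 (-2.16), but shrank to -0.54 without D3501.3, to -1.08 without D3744.1 and to between -0.25 and -0.23 with edgeR and DESeq2. Of 32 meiotic entry genes tested, of 36 listed, 0 were called by limma, edgeR or DESeq2, 0 of them also at an unadjusted p under 0.05 in limma, and the median log2 fold change was -0.13, or 0.17 to 0.19 with edgeR and DESeq2. Without D2549.1 7 of 30 were called lower with a median of -0.56, where 390 of all 13125 genes tested were called lower. Without D3744.1 or D3501.3 the median was positive (0.21 and 0.20). The sum of that list, of which Syce2 was the most abundant, was 5964, 9570, 2383 and 2223 in the exposed embryos and lay between 2527 and 6298 in the vehicle group. The exposed embryos thus lay on both sides of the vehicle range, 1 above and 2 below it.

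The other F3 females place these values. Tdgf1 was 5.15 and 3.15 in the 2 females of 0.2 mg/kg-day, with Stra8 at 40.7 and 35.7, and 6.91 in 1 female of 2 mg/kg-day, with Stra8 at 11.4. In the remaining 3 females of 2 mg/kg-day Tdgf1 was at most 1.28. The vehicle embryo with the lowest Stra8, D3526.1 at 62.9, had Tdgf1 at 0.368. The part of the stage of meiotic entry in the level of Tdgf1 was not tested.

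**Figure D3:**
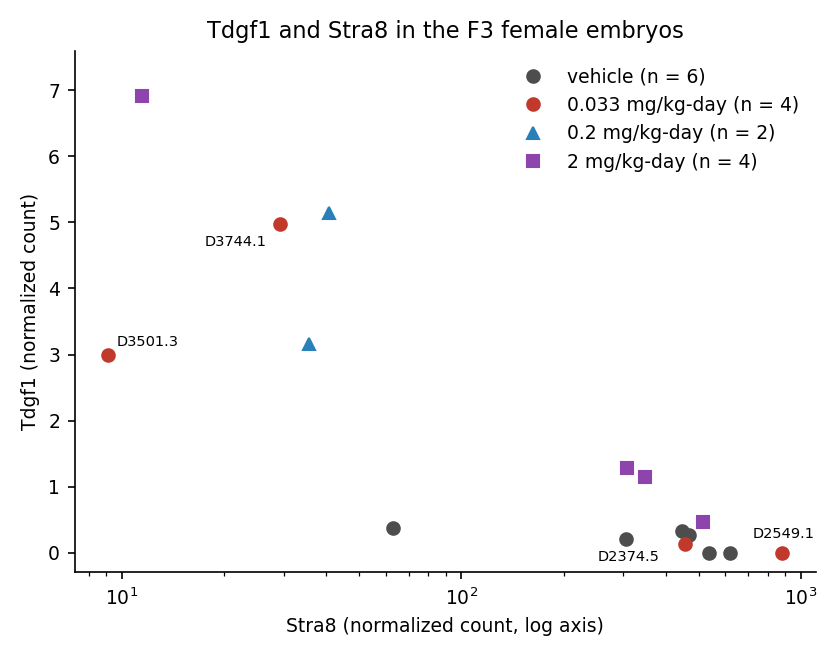
Tdgf1 (y axis) and Stra8 (x axis, log) in normalized counts in the 16 F3 female embryos, by F0 dose (grey circles vehicle, red circles 0.033, blue triangles 0.2 and purple squares 2 mg/kg-day), with the 4 embryos of 0.033 mg/kg-day named. The 5 embryos with the highest Tdgf1 all have Stra8 at 40.7 or less.

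Some somatic genes of the gonad were higher as well, above all markers of its supporting cells, listed here as pregranulosa markers. Of 16 such markers 15 were in the table, 12 were tested, and 6 were called higher and 0 lower, where 1.78% of all genes were called higher. The count called higher was 2 of 11 without D3744.1, where Irx3 fell under the filter. It was 10 of 12 without D2549.1, where 470 of all genes were called higher. Since Irx3 passed the filter only with the exposed embryo D3744.1 in, the count of 6 cannot be weighed against the 1.78%. Their median log2 fold change was 1.05, or 0.69 without D3744.1 and 2.36 to 2.45 with edgeR and DESeq2. Of the 11 tested in the vehicle embryos of F1 and F2, 8 were higher in males and 1 lower (median log2 difference 1.99). Over all genes 2237 of 13232 were higher in males there. The list thus does not mark cells of the ovary alone. The summed level was 59.4, 61.8, 56.8 and 127 in D2374.5, D2549.1, D3501.3 and D3744.1, and had a vehicle lowest of 42.3, a median of 48.4 and a highest of 69.4. Gng13, the most abundant, makes up most of the vehicle sums and lay within the vehicle range in all exposed embryos but D3501.3, which was below it. With Gng13 left out the sums were 12.2, 8.14, 19.9 and 70.0 against a vehicle highest of 10.2, so that D2549.1 alone lay within the vehicle range and D3744.1 stood far above the rest. The part of somatic RNA in the genes below was not tested.

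Wnt6, a secreted Wnt ligand, was at 0.793, 1.36, 1.12 and 2.01 against a vehicle median of 0.272 and a highest of 0.601, with no overlap (log2 fold change 1.17). Wnt4, the ligand that defines the female supporting lineage, was at 1.72, 1.6, 2.00 and 9.33 against at most 2.48, above the vehicle range in D3744.1 alone. Irx3, a homeobox factor of pregranulosa cells, was at 0.661, 0.863, 2.25 and 5.51 against at most 1.31 (log2 fold change 0.88), and fell under the filter without D3744.1. Lgr5, a receptor for R-spondins, was at 0.661, 0.863, 0 and 1.80 against at most 0.205.

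D3744.1 also had the highest sums of the fetal Leydig and stromal lists, the former through 1 gene, Cst8. Of 9 fetal Leydig markers 8 were in the table, 5 were tested and 2 were called higher (Cst8 and Hsd3b1), against 1.78% of all genes, with a median log2 fold change of 0.21, and the most abundant was Pcsk6. The sum was 19.4, 16.3, 17.4 and 46.7 in the exposed embryos and at most 14.8 in the vehicle group. Cst8 alone made up 34.4 of the 46.7 in D3744.1. Cyp17a1, a defining enzyme, was at 0 in every vehicle embryo and at most 0.123 in the exposed ones. Cst8, a cystatin that in the vehicle embryos of F1 and F2 averaged 2.50 in females and 57.6 in males, was at 6.88, 4.44, 8.12 and 34.4 against a vehicle median of 0.528 and a highest of 4.44, a shade above D2549.1 (log2 fold change 2.86, limma adjusted p = 0.599; 2.27 without D3744.1). Hsd3b1, a steroidogenic dehydrogenase, was at 1.45, 0.616, 0.999 and 2.65 against at most 0.555, a log2 fold change of 1.36. Of 19 stromal and mesonephric markers 18 were in the table, 12 were tested and 1 was called higher, again against 1.78% of all genes: Pdgfra, a growth factor receptor of mesenchyme, at 0.529, 0.370, 1.37 and 4.56 against at most 0.701. The median of that list was 0.50, but -0.20 without D3744.1, where 9 genes were tested and 0 called. Some members thus passed the filter only with D3744.1 in, and the count cannot be weighed against that share. Limma called 5 higher without D2374.5 and 4 without D1388.3. That vehicle embryo also stood apart from its group, with Dcn at 14.2, Col1a2 at 2.70 and Tcf21 at 2.10 where the other vehicle embryos had at most 0.980, 0.333 and 0, and Lum and Mfap4 were higher in a vehicle embryo than in any exposed one. The sum of the list was 46.4, 54.0, 65.3 and 127 against a vehicle lowest of 62.0 and a highest of 95.6, with Wfdc2 the most abundant.

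Myl9 and Emp3 had the smallest adjusted p in both the likelihood ratio test of edgeR and DESeq2. Myl9, a myosin light chain, was at 13.9, 10.4, 20.9 and 86.8, and the vehicle group had a lowest value of 3.29, a median of 6.89 and a highest of 10.2. The groups did not overlap, though D2549.1 lay just above the vehicle range, and the log2 fold change was 1.79, or 1.15 without D3744.1 (limma adjusted p = 0.315; edgeR likelihood ratio adjusted p = 0.0093). Emp3, a membrane protein, was at 13.2, 7.27, 14.4 and 52.3 against a vehicle median of 3.70 and a highest of 6.79, with a log2 fold change of 2.05, or 1.51 without D3744.1. Tmsb4x, thymosin beta 4, which binds actin, was at 107, 63.1, 129 and 263 against a vehicle median of 40.7 and a highest of 52.6 (log2 fold change 1.57). In all 3 genes every exposed embryo was above every vehicle embryo, and D3744.1 was the highest. Kctd14 was at 8.99, 3.95, 11.5 and 35.0 against at most 4.05 (log2 fold change 2.19). Myl9, Emp3, Tmsb4x and Kctd14 were named for a small p in this same comparison, which partly sets how far apart their groups lie. Calb1, a calcium-binding protein picked out after its values were seen, was at 0.793, 1.23, 1.25 and 9.44 against at most 0.677, with a log2 fold change of 1.83 (limma adjusted p = 0.168), and fell under the filter without D3744.1.

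Xist, the RNA that silences an X chromosome in female somatic cells and is switched off in XX germ cells as the silent X is reactivated, was at 0.529, 0.247, 2.87 and 6.57 in the exposed embryos, and the vehicle group had a lowest value of 0.123, a median of 0.428 and a highest of 1.30. D3501.3 and D3744.1 stood above the vehicle group, and the other 2 lay within it. The log2 fold change was 1.13 (limma unadjusted p = 0.0124, adjusted p = 0.990; exact permutation p = 0.119), and the call was lost without D3744.1 (0.54) or D3501.3 (0.89), and when the fit held the 10 embryos alone (unadjusted p = 0.0609). Of 9 sex chromosome genes the 7 Y-linked ones were at 0, and the entry of the antisense gene Tsix was called higher along with Xist. The span of Tsix contains all of Xist and the labels do not say whether the libraries keep strand, so reads of these genes cannot be told apart here. The median of the 9 is that of the genes at 0 and is not given.

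Of the 158 genes called lower, 44 were female-specific by the measure given below, as were 1072 of the 13139 genes tested. Entpd5, an endoplasmic reticulum hydrolase, was at 3.97, 2.71, 2.87 and 3.39 in the exposed embryos, and the vehicle group had a lowest value of 4.71, a median of 6.10 and a highest of 8.42. No exposed embryo reached the vehicle range, and the log2 fold change was -0.85 (limma unadjusted p = 0.000741, adjusted p = 0.464; exact permutation p = 0.00476). Zfp212, a zinc finger protein, was at 4.89, 4.93, 4.37 and 6.68 against a vehicle lowest of 7.29 (log2 fold change -0.70), and Fam82a2, a mitochondrial tether also named Rmdn3, was at 13.1, 8.38, 14.4 and 15.0 against a vehicle lowest of 17.2 (log2 fold change -0.67, or -0.49 and not called without D2549.1). Aldoc, the aldolase of brain, was at 5.16, 7.52, 7.62 and 9.01 against a vehicle lowest of 10.3 (log2 fold change -0.89). Entpd5, Zfp212, Fam82a2 and Aldoc were named for a small p in this same comparison, so their separation of the groups was partly set by that choice.

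Also lower, and picked out after their values were seen, were 3 regulators at low counts. Eif2c4, the Argonaute now named Ago4, was at 2.12, 1.85, 0.375 and 0.742 against a vehicle lowest of 2.70 (log2 fold change -1.27). Cdx2, a homeobox factor of trophectoderm and gut, was at 0.397, 0.863, 0.50 and 0.636 against a vehicle lowest of 1.23 (log2 fold change -1.01), and Hand1, a factor of placenta and heart, was at 0.132, 0.863, 0.625 and 1.27 against a vehicle lowest of 1.47 (log2 fold change -1.19). In all 3 the groups did not overlap. In the males Eif2c4 had a log2 fold change of 0.65, whereas Cdx2 and Hand1 were at or near 0 in both male groups, so that no fall could show there. For Eif2c4 the response differed between the sexes by -1.92 (limma unadjusted p = 0.000195, adjusted p = 1), the smallest p of that comparison.

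Genes of the response to BaP itself, the enzymes that process it and the targets of DNA damage, gave no call in the main limma fit. Without D2549.1, where limma called 470 of all genes higher, it called 2 of 22 xenobiotic genes and 2 of 18 p53 targets higher. It called 1 p53 target higher with a pseudocount of 0.1, with no filter and without D1344.3. Of 27 genes of the xenobiotic and oxidative response 25 were in the table, 22 were tested and 0 were called in limma, edgeR or DESeq2, with 1 in limma at an unadjusted p under 0.05, and the median log2 fold change was -0.01. That 1 was the most abundant, Gpx1, a glutathione peroxidase, which was at 1050, 621, 1390.9 and 1448 against a vehicle median of 750 and a highest of 1031. Of 19 targets of p53 and DNA damage 18 were tested and 0 were called by limma, 0 of them also at an unadjusted p under 0.05, and 1 was higher with edgeR and DESeq2; their median was 0.07 and the most abundant was Bax.

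Inflammatory signalling was read from 2 further lists. Of 27 genes of the cytokine and NF-kB response 16 were in the table and 8 were tested, and 2 were called higher, C3ar1 and Cd83, against 1.78% of all genes, with a median log2 fold change of -0.10 and Irf1 the most abundant. Both edgeR tests and DESeq2 also called 2 higher but 1 lower, with a positive median (0.05 to 0.08). Cd83, a surface protein of activated antigen-presenting cells, was at 2.64, 0.740, 1.5 and 4.14 against a vehicle median of 0.429 and a highest of 1.0 (log2 fold change 1.54). Of 16 interferon response genes 7 were tested and 0 were called by limma, 0 by the quasi-likelihood test and 1 by the likelihood ratio test and DESeq2, with a median of 0.13 and Bst2 the most abundant. Of 18 genes of dissociation stress and RNA quality 17 were tested and 0 were called by limma and 1 by edgeR and DESeq2, with a median of -0.0049 and Hsp90aa1 the most abundant. Limma placed 0 genes of these last 2 lists at an unadjusted p under 0.05.

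Other cell types and the male germ cell programme gave no call in the main limma fit. With a pseudocount of 0.1 limma called 2 Sertoli markers higher. Of the male programme it called 2 genes lower without D3744.1, and 1 lower without D2549.1 and without D1344.3. Over all genes 390 were lower without D2549.1 and 97 without D1344.3. Of 12 Sertoli markers all 12 were tested and 0 were called (median log2 fold change 0.17, Ctsl the most abundant). The log2 fold change was positive in 10 of the 12. Defb19 lay between 0.370 and 2.54 in the exposed embryos against at most 0.261 in the vehicle group, with no overlap. Cst9, a defining marker, reached 1.17 in D3744.1 against a vehicle highest of 0.392. Amh, another defining marker, was at 0 in all exposed embryos and at most 0.111 in the vehicle group. Of 17 endothelial markers 7 were tested and 0 were called (median 0.05), and Pecam1, the most abundant, which germ cells also express, lay between 14.2 and 45.1 in the exposed group and between 22.2 and 46.1 in the vehicle group, while Kdr was at most 0.954. Of 18 erythroid markers 7 were tested and 0 were called (median 0.42, Klf1 the most abundant), and their sum lay between 0.926 and 9.62 against 1.10 to 3.61. The erythroid median was 1.49 to 3.78 with edgeR and DESeq2 and 0.00 without D2549.1. Of 16 genes of the male germ cell programme 14 were tested and 0 were called (median -0.07, Tex19.1 the most abundant). Limma placed 0 genes of these 4 lists at an unadjusted p under 0.05; edgeR and DESeq2 called 0 endothelial and 0 erythroid markers, 2 or 3 Sertoli markers higher (and 1 lower with the likelihood ratio test), and 1 gene of the male programme higher with the likelihood ratio test and DESeq2.

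Sex-biased genes were unevenly spread over the calls. In the vehicle embryos of F1 and F2, which the F3 comparison does not use, 1092 genes were male-specific and 1088 female-specific, by an adjusted p under 0.05 in limma and more than 2-fold. Of the 1071 male-specific genes tested in F3, 78 (7.28%) were higher and 2 lower in the exposed females, where 1.78% of all genes were higher, and of the 1072 female-specific genes 4 were higher and 44 (4.10%) lower, where 1.20% of all genes were lower. Male-specific genes made up 33.3% of the 234 called higher, and female-specific genes 27.8% of the 158 called lower. Among all 13139 genes tested, 1071 were male-specific and 1072 female-specific. The median log2 fold change was 0.15 over the male-specific and -0.17 over the female-specific genes. The 78 became 17 without D3744.1, 121 without D2374.5 and 185 without D2549.1, so that their number depended on single embryos. Somatic markers named above are among the male-specific genes, such as Cst8, Hsd3b1 and Wnt6, each highest in D3744.1, and the part of somatic RNA in this shift was not tested.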

How the data were processed

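RNA-seq of sorted E13.5 germ cells of 101 embryos (48 females, 53 males) was used as the authors deposited it. The deposited signal holds normalized read counts (CPM of the TMM-scaled library size) for 15423 genes, 1 column per embryo; per the labels and the study's methods, reads were trimmed with Trim Galore, aligned to mm10 with STAR and normalized with edgeR. In each embryo every nonzero value lay within 0.05 of a whole number of reads after division by a step per embryo, and whole reads recovered so served the count-based tests; for D1388.3 and D4190.1 the step lies near 0.1, where a finer check of decimals could not settle it.

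The test was limma 3.58.1 (R 4.3.3) with a trended prior on log2 of the value plus 0.5, over the F3 embryos of both sexes in 8 sex-by-dose groups, for genes with a mean of at least 0.5, with Benjamini-Hochberg adjustment over all genes tested. A gene was also called at 1.5-fold or more with an unadjusted p under 0.05. Calls credited to limma are those of this main fit unless another setting is named. Exact two-sided permutation tests over embryos used the mean log2 value of the 210 splits of 4 against 6. Sex-specific genes came from the F1 and F2 vehicle embryos. Alternatives were pseudocounts of 0.1 and 1, no filter, a mean of at least 5, F3 females alone, the 10 embryos alone, upper quartile scaling, edgeR 4.0.16 (quasi-likelihood and likelihood ratio), DESeq2 1.42.0, dam as a random block, and each of the 10 embryos left out; the count-based tests without D3744.1 were added after seeing the data.

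Named genes were Ccl3, Ccl12 and Tdgf1, up to 8 genes in each direction with the smallest p among those called with a mean of at least 5, the most abundant, defining and up to 4 smallest-p members of each list, all Nodal pathway genes tested, and the genes with the smallest p of all. Calb1, Arhgdib, Cdx2, Eif2c4, Hand1, Gpr34 and Fcrls were added after their values were seen. The members and lists were chosen with earlier results of these data known. Symbols matched RefSeq (GRCm38.p6) for all 146 named genes, older symbols through its synonyms. Littermates of both sexes are treated as independent in the fit; the within-dam correlation over F3 was 0.225. No labels of sequencing batch are given.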

Additional observations from a re-analysis of the deposited data

Results flagged for a closer look

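Single embryos lay far from the rest of their group, on the log2 scale, in 9 of 114 groups examined; chance alone singles out about 1 in 20 groups. Embryo D2549.1 was low among the exposed females in Tyrobp (4.93 normalized counts) and in C1qb (6.04). Embryo D1388.3 was low among the vehicle females in Tyrobp (0.10). Embryo D3526.1 was low among the vehicle females in Kctd14 (0.123) and in Stra8 (62.9). Embryo D1344.3 was high among the vehicle females in Cdx2 (3.22). Embryo D3744.1 was high among the exposed females in Calb1 (9.44), in the summed level of fetal Leydig markers (46.7) and in that of pregranulosa markers (127). Cst8 alone made up 34.4 of that Leydig sum, and the list as a whole did not set the embryo apart. The causes were not tested.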

How the results depend on the processing

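Of 743 single-gene values over 37 named genes and the alternatives that could test them, 714 kept their direction and their side of the fold and p rule, 18 lost the call, 11 gained it and 0 reversed. Many of these genes were named for a small p in this same comparison. The alternatives also reuse all or nearly all of its embryos, so these counts were partly set in advance. A gene that fell under the filter when an embryo was left out, or under the mean of at least 5, gave no value. The count at an adjusted p under 0.05 was 20 with edgeR's likelihood ratio test and 10 with DESeq2, and limma called 0 with any 1 of the 10 embryos left out. Genes called higher, 234 as reported, numbered 79 with a mean of at least 5, 364 with edgeR's quasi-likelihood test, 408 with its likelihood ratio test, 393 with DESeq2 and 114 to 470 with 1 embryo left out. Genes called lower, 158 as reported, numbered 37 with a mean of at least 5 and 97 to 390 with 1 embryo left out. Male-specific genes called higher, 78 as reported, numbered 41 with a mean of at least 5, 162, 182 and 178 with the quasi-likelihood test, the likelihood ratio test and DESeq2, and 17 to 185 with 1 embryo left out. Macrophage markers called higher, 16 as reported, numbered 14 with edgeR and DESeq2 and 12 to 16 with 1 embryo left out, and none of them could be tested with a mean of at least 5. Chemokines called higher, 3 as reported, numbered 7 with no filter, 0 of the 2 tested with a mean of at least 5, 5 in the fit of F3 females alone and 1 to 4 with 1 embryo left out. Pregranulosa markers called higher, 6 as reported, numbered 0 of the 1 tested with a mean of at least 5, 10 with the quasi-likelihood test, 9 with the likelihood ratio test, DESeq2 or dam as a random block, 8 with no filter or in the fit of F3 females alone, and 2 to 10 with 1 embryo left out. Nodal pathway genes called higher, 2 as reported, numbered 1 with a mean of at least 5, 1 in the fit of the 10 embryos alone, 6 with either edgeR test, 5 with DESeq2 and 1 to 5 with 1 embryo left out. Sex-specific genes, 2180 as reported, numbered 1053 with a mean of at least 5, where fewer genes are tested. Where no cause is named, the cause was not tested. With 4 exposed embryos and many named genes under 5 normalized counts, the smallest difference that could be detected was not tested, and reads without molecular identifiers are not independent molecules.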
